A study of Mus musculus with 8 samples.

Results

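Open chromatin was compared between GMP-MoP and proNeu1, a pair of mouse bone marrow progenitor populations, with 2 ATAC-seq libraries each, so 4 of the 8 libraries of the series. The title of the series describes a route on which GMP-MoP arise from proNeu1, and the comparison asks which regions are more open and which less open in the monocyte progenitor than in that proposed origin. The other 4 libraries, 2 of cMoP and 2 of proNeu2, entered the filter on low counts and the estimate of the spread. They also served as a second pair of groups that shares no library with the first. ATAC-seq marks accessible DNA by the insertions of the Tn5 transposase, and each library came from 5000 sorted cells per tube.

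The labels give each group by its name and as progenitor cells of the bone marrow, and nothing in them separates the groups by genotype, strain, age or treatment. Which surface markers defined each sort is not stated in the labels. GMP-MoP is taken here as a monocyte progenitor of the granulocyte-monocyte progenitor lineage, cMoP as the common monocyte progenitor, and proNeu1 and proNeu2 as early committed neutrophil progenitors, which are the usual meanings of the names. The samples are called biological replicates, but nothing says that they came from separate animals. The p-values therefore reflect only the variation among these libraries, part of which may be technical.

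Monocytes and neutrophils come from a shared granulocyte-monocyte progenitor. PU.1 and C/EBPα open the chromatin that both share. IRF8, KLF4 and the receptor for macrophage colony-stimulating factor favour the monocyte and dendritic cell side, whereas GFI1 and C/EBPε favour the neutrophil side. Neutrophil progenitors first switch on the proteins of the primary granules, such as myeloperoxidase and elastase, and later those of the secondary and tertiary granules, such as neutrophilic granule protein, cathelicidin and lipocalin 2. An accessible region can be a promoter or a distal element, and its openness is not the expression of the gene beside it.

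The promoters of 7 genes that the results turn on are shown here, because each lies in a region whose accessibility differed between GMP-MoP and proNeu1. The sequences are from RefSeq for GRCm38.p6 (the assembly called mm10), run from 250 bases before to 50 bases after the gene start, and are written 5′ to 3′ on the strand of the gene. Capitals mark exact matches, on either strand, to the motif cores searched: GAGGAAGT for PU.1, GAAANNGAA for IRF factors, TGACTCA for AP-1, TTGCNNCAA for C/EBP, TGTGGTTT for RUNX factors, GGGTGTGG for KLF factors and AATCACTGC for GFI1. The first 3 lay in regions more open in GMP-MoP, and the other 4 in regions less open there.
Irf8, chr8:120736108-120736407, plus strand: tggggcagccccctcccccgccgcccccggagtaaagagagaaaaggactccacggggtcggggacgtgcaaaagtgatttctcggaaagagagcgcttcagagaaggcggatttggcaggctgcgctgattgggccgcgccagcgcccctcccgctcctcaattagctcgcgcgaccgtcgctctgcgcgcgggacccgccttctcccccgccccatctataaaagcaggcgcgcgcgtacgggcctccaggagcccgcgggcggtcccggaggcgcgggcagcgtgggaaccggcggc
Tlr9, chr9:106222348-106222647, plus strand: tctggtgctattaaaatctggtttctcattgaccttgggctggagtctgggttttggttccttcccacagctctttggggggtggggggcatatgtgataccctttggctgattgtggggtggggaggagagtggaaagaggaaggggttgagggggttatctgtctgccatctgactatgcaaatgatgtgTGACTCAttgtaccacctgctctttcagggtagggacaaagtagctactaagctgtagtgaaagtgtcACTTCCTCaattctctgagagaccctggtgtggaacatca
Mmp8, chr9:7558179-7558478, plus strand: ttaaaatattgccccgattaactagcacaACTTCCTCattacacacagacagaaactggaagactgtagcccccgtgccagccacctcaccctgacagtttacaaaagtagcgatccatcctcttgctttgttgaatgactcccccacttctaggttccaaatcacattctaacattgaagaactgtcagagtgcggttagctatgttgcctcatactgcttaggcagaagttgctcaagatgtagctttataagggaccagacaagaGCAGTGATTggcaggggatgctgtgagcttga
Ngp, chr9:110419558-110419857, plus strand: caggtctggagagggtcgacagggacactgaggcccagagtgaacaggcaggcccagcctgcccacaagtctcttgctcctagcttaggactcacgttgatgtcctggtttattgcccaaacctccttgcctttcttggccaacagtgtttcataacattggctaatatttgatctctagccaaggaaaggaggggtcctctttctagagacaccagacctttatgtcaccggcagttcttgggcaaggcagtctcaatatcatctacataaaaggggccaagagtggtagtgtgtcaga
S100a9, chr3:90695672-90695971, minus strand: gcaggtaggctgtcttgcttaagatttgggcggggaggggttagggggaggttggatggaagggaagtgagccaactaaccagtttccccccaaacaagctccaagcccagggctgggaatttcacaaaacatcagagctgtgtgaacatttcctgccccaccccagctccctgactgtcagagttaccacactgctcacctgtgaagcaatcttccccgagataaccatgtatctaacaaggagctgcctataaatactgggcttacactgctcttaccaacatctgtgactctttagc
S100a8, chr3:90668821-90669120, plus strand: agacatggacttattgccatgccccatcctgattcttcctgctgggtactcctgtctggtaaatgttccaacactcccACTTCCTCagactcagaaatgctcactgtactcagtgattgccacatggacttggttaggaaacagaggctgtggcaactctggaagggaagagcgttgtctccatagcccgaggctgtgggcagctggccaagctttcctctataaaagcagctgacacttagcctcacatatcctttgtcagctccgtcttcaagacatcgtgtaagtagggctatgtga
Camp, chr9:109849407-109849706, minus strand: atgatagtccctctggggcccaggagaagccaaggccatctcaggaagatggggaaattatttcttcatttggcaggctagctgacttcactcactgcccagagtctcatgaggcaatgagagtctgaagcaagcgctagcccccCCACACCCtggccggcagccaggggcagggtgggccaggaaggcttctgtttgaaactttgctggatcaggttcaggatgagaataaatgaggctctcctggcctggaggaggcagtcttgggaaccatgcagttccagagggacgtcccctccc
In Tlr9 the capitals are an AP-1 match and then a PU.1 match. In Mmp8 they are a PU.1 match and then a GFI1 match, in S100a8 a PU.1 match and in Camp a KLF match. The Irf8, Ngp and S100a9 windows held none of these letters. A match is a description of the letters only.

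Counts were given for 61196 regions, and 47506 passed the filter on low counts and were tested. The GMP-MoP libraries held 1388525 and 1715928 counts in these regions and the proNeu1 libraries 1515953 and 1572001. Spearman's rho across the tested regions was 0.895 between the GMP-MoP libraries and 0.919 between the proNeu1 libraries, against 0.768 to 0.798 between libraries of different groups. These depths put 3 counts at 2.18 and 1.70 CPM (counts scaled to the same library size) in GMP-MoP and at 2.13 and 2.04 CPM in proNeu1, so levels near these values were at the limit of what the libraries can resolve. Of the marker lists of other blood cells, B cell regions summed to 187 to 193 CPM in GMP-MoP and 169 to 191 CPM in proNeu1 (3 of 18 higher, 1 lower). T and NK cell regions summed to 359 to 372 and 405 to 419 CPM (4 higher and 3 lower of 28). Erythroid and megakaryocyte regions summed to 401 to 480 and 542 to 545 CPM (1 higher and 5 lower of 24), and mast cell, basophil and eosinophil regions to 258 to 298 and 302 to 304 CPM (2 higher and 2 lower of 24). The B cell genes Cd79a, Rag1 and Rag2 and the red cell genes Hba-a1, Alas2, Slc4a1 and Epor had no tested region linked to them. The part of such cells in the results below was not tested.

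Of the tested regions, 5513 were more accessible in GMP-MoP than in proNeu1 and 5915 were less accessible (edgeR quasi-likelihood F test, Benjamini-Hochberg adjusted p under 0.05). These are 11.6% and 12.5% of the 47506 regions, and 24.1% in either direction. Regions that were higher had little signal in proNeu1: the median region that was higher stood at 12.5 CPM in GMP-MoP and 3.79 CPM in proNeu1, a median log2 difference of 1.68. Regions that were lower with TMM factors kept more signal in the lower group: their median level was 22.6 CPM in GMP-MoP and 40.4 CPM in proNeu1, a median log2 difference of -0.85. Accordingly, 4745 regions were higher by at least 2 fold, against 2280 lower by at least 2 fold. In bulk libraries, fewer cells with a region open and less opening in each cell cannot be told apart.

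The balance between the directions depended on the scaling. With library totals in place of TMM factors, 6893 regions were higher and 4060 lower, and a loess correction of the offsets by abundance gave 6161 and 2959, so that 62.9% and 67.6% of the called regions were higher, against 48.2% with TMM factors. The median log2 difference over all tested regions was 0.01 with TMM factors, 0.14 with totals and 0.14 with loess offsets. The sizes depended on it too: with loess offsets 3902 of the 6161 higher and 2212 of the 2959 lower regions differed by at least 2 fold, so that the larger share was then among the lower regions, the reverse of TMM factors. DESeq2 called 1063 higher and 1072 lower. Without GMP-MoP replicate 2 the counts were 2443 higher and 2306 lower, without proNeu1 replicate 1 they were 3517 and 3880, and without proNeu1 replicate 2 they were 3148 and 3661.

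Where the groups differed also depended on the kind of region. Of tested regions linked to a gene with a listed start, 9524 lay within 1 kb of a gene start and 24377 lay farther away. At gene starts 3.83% were higher in GMP-MoP and 25.8% lower, and away from starts 13.1% were higher and 9.01% lower. Gene starts thus made up 28.1% of such tested regions, 10.2% of the higher ones and 52.8% of the lower ones. Gene bodies held 43.1% of such tested regions, 55.5% of the higher ones and 28.1% of the lower ones. Of all higher regions, 18.7% lay over 50 kb from any protein-coding gene, against 4.41% of the lower ones and 10.4% of all tested.

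This contrast was not kept by every scaling. With loess offsets, which remove a trend of the difference with the level, gene starts held 28.9% of the higher and 20.2% of the lower regions. The median log2 difference at gene starts was -0.26 with TMM factors and 0.07 with loess offsets. The promoters within lower regions had a median GC content of 64.3% (3617 promoters), those within higher regions 57.7% (459) and those within any tested region 61.7% (13103). The part of GC content, level or library quality in the gene-start pattern was not tested.

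**Figure D1:**
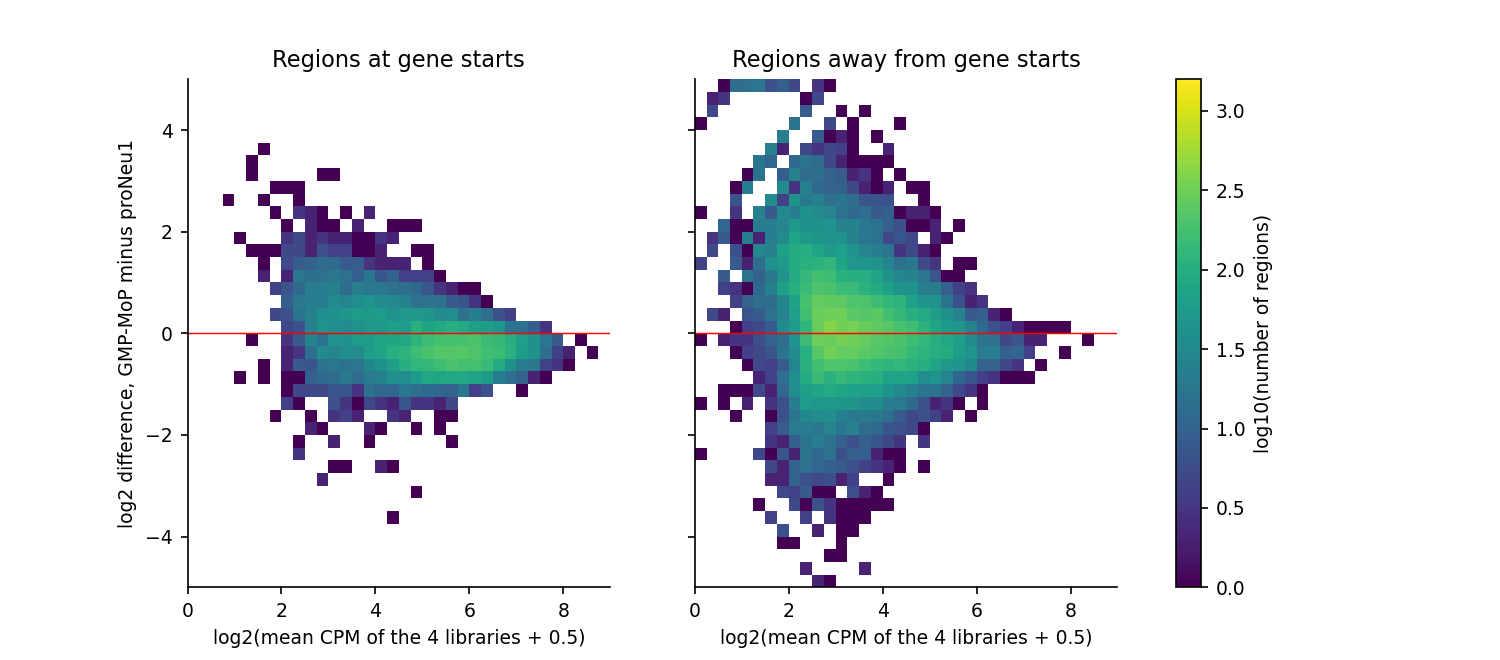
Log2 difference between GMP-MoP and proNeu1 (vertical axis) against the level of the region (horizontal axis, log2 of the mean CPM of the 4 libraries plus 0.5), with colour for the number of regions on a log10 scale and values beyond the axes placed in the outermost cells. The 9524 regions at gene starts cluster at high levels just below the zero line (median -0.26), while the 24377 regions away from starts spread to large positive differences at low levels.

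On the monocyte side, Irf8, Irf5, Csf1r, Pld4 and Ctss were each linked to regions more open in GMP-MoP. Of 141 tested regions linked to 36 monocyte and macrophage genes, 26 (18.4%) were higher and 14 (9.93%) lower in GMP-MoP, with a median log2 difference of 0.32, against 11.6% and 12.5% and a median of 0.01 over all tested regions. By gene, 12 had only higher regions, 7 only lower ones, 2 both and 15 neither. The count of higher regions was 9 with DESeq2, 15 without GMP-MoP replicate 2 and 16 without proNeu1 replicate 1. That of lower regions was 3 with DESeq2, 8 without GMP-MoP replicate 2, 9 without proNeu1 replicate 2 and 8 in a fit of the 4 GMP-MoP and proNeu1 libraries alone.

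Irf8 encodes the transcription factor that commits progenitors to the monocyte and dendritic cell fates, and 5 of its 9 linked regions were higher in GMP-MoP and none lower. The region over its start, whose promoter is printed above (chr8:120735825-120736872), stood at 29.8 and 21.5 CPM in GMP-MoP and at 4.25 and 4.75 CPM in proNeu1. Both GMP-MoP libraries were several times above both proNeu1 libraries, a log2 difference of 2.47 (SE 0.38, edgeR adjusted p = 7.15e-08). The most accessible Irf8 region lay 56595 bp downstream of the start of the printed promoter (chr8:120792350-120793557). It stood at 40.7 and 42.0 CPM in GMP-MoP and 18.4 and 21.7 CPM in proNeu1, a log2 difference of 1.04 (SE 0.24, edgeR adjusted p = 3.93e-04). The proNeu1 libraries thus kept more of the GMP-MoP level at this distal region than at the start, a contrast that was not itself tested.

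The 3 other higher Irf8 regions lay 21218, 27096 and 32446 bp downstream of the same start and were weak in all libraries. At the first, GMP-MoP had 8.71 and 5.67 CPM and proNeu1 0 and 1.36 CPM. At the second, GMP-MoP had 8.71 and 6.24 CPM and proNeu1 0.708 and 0 CPM, a ratio of 21.1 (95% exact counting interval 3.43 to 871). The third had 10.2 and 9.64 CPM against 3.54 and 2.04 CPM. None of these 3 calls was made by DESeq2 (adjusted p = 0.0871, 0.076 and 0.148), and the calls at 21218 bp without proNeu1 replicate 1 and at 32446 bp without either GMP-MoP replicate 2 or proNeu1 replicate 2 were not made either (adjusted p = 0.0553, 0.0508 and 0.117). The remaining 4 Irf8 regions, 1 of them upstream, did not pass the test.

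**Figure D2:**
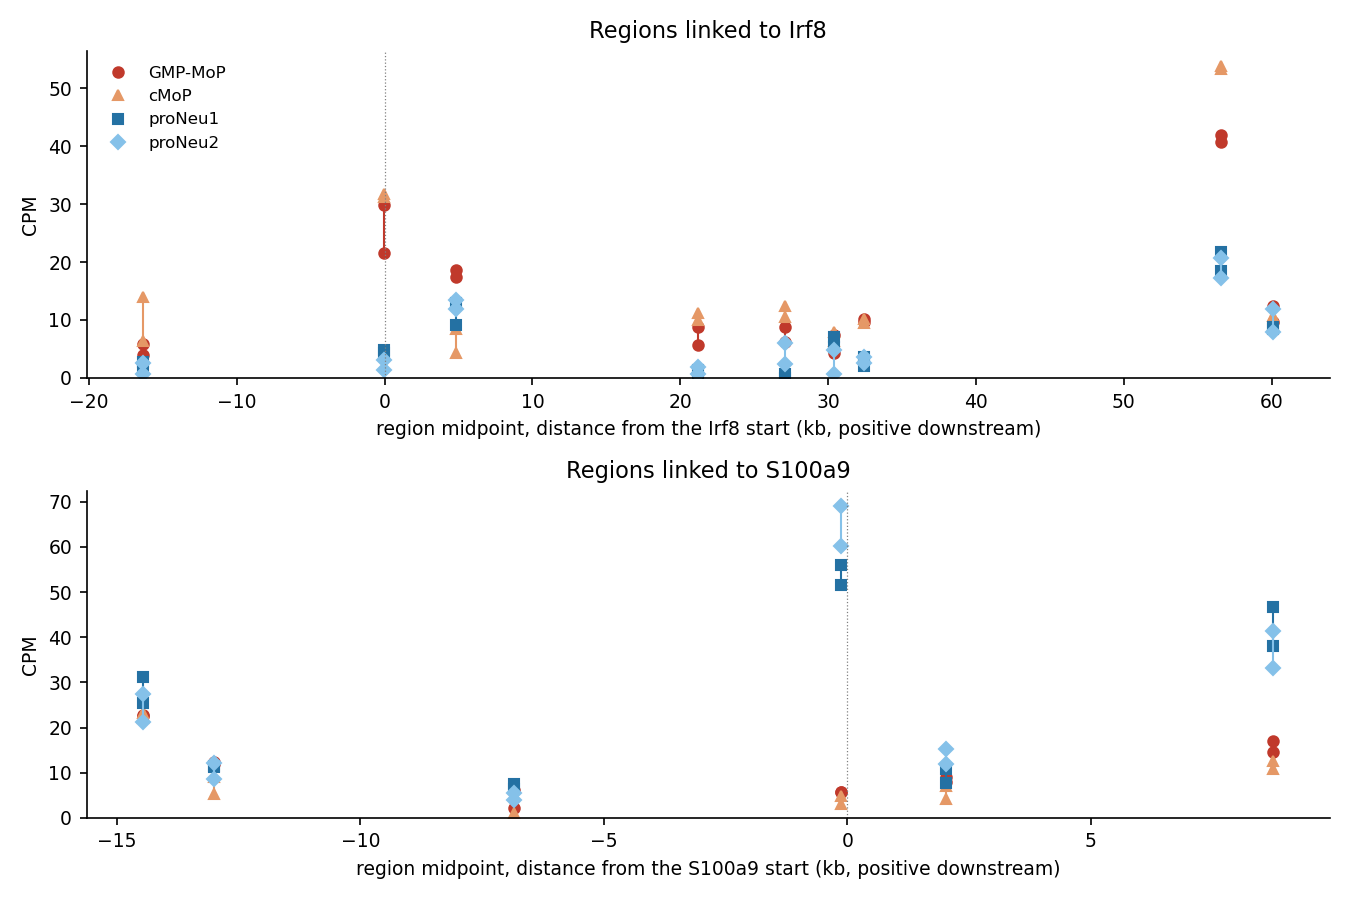
Accessibility (vertical axis, CPM) of the tested regions linked to Irf8 (top) and S100a9 (bottom) against the distance of the region's midpoint from the gene start of the printed promoter (horizontal axis, kb), with 1 point per library and lines joining the 2 libraries of a group. At the Irf8 start GMP-MoP (21.5 to 29.8 CPM) and cMoP lie above proNeu1 (4.25 to 4.75 CPM) and proNeu2, and at the S100a9 start the order is the opposite, with GMP-MoP at 5.67 to 5.81 CPM and proNeu1 at 51.5 to 56.0 CPM.

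Csf1r encodes the receptor for macrophage colony-stimulating factor, and 1 of its 3 regions was higher. That region, within the gene, stood at 46.5 and 43.1 CPM in GMP-MoP and 23.4 and 23.7 CPM in proNeu1, a log2 difference of 0.92 (SE 0.23, edgeR adjusted p = 0.00105, DESeq2 adjusted p = 0.0524). The groups did not overlap, and the proNeu1 libraries lay within 1 CPM of each other. Irf5 encodes a factor of inflammatory macrophage genes. Its region 2335 bp upstream of the start (chr6:29523728-29524853) stood at 32.0 and 26.6 CPM against 6.37 and 2.71 CPM, a log2 difference of 2.67 (SE 0.37, edgeR adjusted p = 1.55e-09). Pld4, a lysosomal exonuclease of myeloid and dendritic cells, had a region 1580 bp downstream of its start at 35.6 and 25.5 CPM against 3.54 and 6.78 CPM (log2 difference 2.51, SE 0.36, edgeR adjusted p = 4.54e-09).

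Cathepsin S, encoded by Ctss, trims the invariant chain in antigen presentation. The Ctss region 3284 bp into the gene (chr3:95529738-95530402) had 7.99 and 15.3 CPM in GMP-MoP and no count in either proNeu1 library, at least 11.6-fold higher when 3 counts over the proNeu1 libraries are taken as the floor (edgeR adjusted p = 2.41e-08). A second Ctss region, 5355 bp upstream, did not differ beyond its error (16.7 and 17.0 against 11.3 and 14.9 CPM, log2 difference 0.36, SE 0.33). A region 6991 bp upstream of Fcgr1, which encodes the high-affinity IgG receptor, had 25.4 and 27.8 CPM against 9.92 and 6.78 CPM (log2 difference 1.67, SE 0.32, edgeR adjusted p = 1.96e-05). Of 4 Fcgr1 regions 2 were higher, and the best-covered one did not pass the test (edgeR adjusted p = 0.106). At the called regions of Csf1r, Irf5, Pld4, Ctss and Fcgr1 given here, the GMP-MoP and proNeu1 libraries did not overlap. That held for 99.4% of all called regions and 61.2% of all tested regions in either direction, so it adds nothing to the calls.

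Klf4, which encodes a factor of monocyte and macrophage maturation, had a smaller difference. The Klf4 start had 52.3 and 31.2 CPM in GMP-MoP and 22.0 and 30.5 CPM in proNeu1, so the lower GMP-MoP library nearly met the higher proNeu1 library (log2 difference 0.63, SE 0.23, edgeR adjusted p = 0.0336). Without GMP-MoP replicate 1 or proNeu1 replicate 1 the Klf4 call was not made (adjusted p = 0.622 and 0.324), nor by DESeq2 (adjusted p = 0.261).

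Several genes of the monocyte list did not pass the test at their best-covered region, or were less open in GMP-MoP. The best-covered regions of Ly6c2, Ccr2, Mpeg1, F13a1 and Zeb2 had log2 differences of 0.05 (SE 0.19), -0.17 (SE 0.30), -0.26 (SE 0.22), 0.39 (SE 0.27) and -0.59 (SE 0.24). Away from these regions, Mpeg1 had 1 of 3 regions higher and F13a1 2 higher and 1 lower of 4. Ly6c2 had 1 of 5 and Zeb2 1 of 7 lower, and none of the 5 Ccr2 regions was called. The best-covered region of Ly6c2, a gene of the Ly6C surface antigens, had 59.5 and 48.8 CPM in GMP-MoP and 61.6 and 42.1 CPM in proNeu1. A region 6391 bp downstream of the start of Lyz2, the lysozyme gene of macrophages and granulocytes, went the other way. It had 2.90 and 2.27 CPM in GMP-MoP and 30.5 and 21.0 CPM in proNeu1 (log2 difference -3.29, SE 0.44, edgeR adjusted p = 3.47e-10). A region 20305 bp upstream of Nr4a1, which encodes a nuclear receptor of non-classical monocytes, had 29.0 and 34.6 against 67.3 and 78.0 CPM (log2 difference -1.18, SE 0.19, edgeR adjusted p = 4.36e-07). Of the regions linked to Nr4a1, 3 of 5 were lower. Of 7 regions linked to Cx3cr1, 3 were lower and none was higher. Its best-covered region was among the lower ones (edgeR adjusted p = 0.0181). That call was lost with library totals, loess offsets and DESeq2 (adjusted p = 0.0618, 0.345 and 0.232).

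Of 108 regions linked to dendritic cell and antigen presentation genes, 18 (16.7%) were higher and 7 (6.48%) lower, with a median log2 difference of 0.29. For all tested regions these values were 11.6%, 12.5% and 0.01. The higher count was 7 with DESeq2, 10 without GMP-MoP replicate 2 and 10 without proNeu1 replicate 2. The lower count was 1 with DESeq2 and 1 without GMP-MoP replicate 2. Siglech, a lectin of plasmacytoid dendritic cells, had a region at 55.2 and 52.2 CPM in GMP-MoP and 15.6 and 15.6 CPM in proNeu1 (log2 difference 1.77, SE 0.24, edgeR adjusted p = 9.52e-10). Dpp4, which encodes a surface peptidase, had a region 29116 bp upstream at 61.7 and 60.7 against 17.0 and 10.2 CPM (log2 difference 2.17, SE 0.24, edgeR adjusted p = 1.10e-13). Cadm1, which encodes an adhesion molecule of type 1 dendritic cells, had a region at 28.3 and 34.6 against 2.13 and 4.07 CPM (log2 difference 3.32, SE 0.39, edgeR adjusted p = 1.32e-12). Of 5 Cadm1 regions, 3 were higher and 1 was lower.

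Ciita encodes the master activator of the class II histocompatibility genes. Its region within the gene (chr16:10487752-10488521) had 7.99 and 9.07 CPM in GMP-MoP and no count in proNeu1, at least 8.27-fold higher with 3 counts as the floor (edgeR adjusted p = 2.45e-06). The best-covered regions of Zbtb46 and Cd74 did not pass the test (log2 differences 0.32, SE 0.22, and 0.17, SE 0.29). Of 3 Cd74 regions 1 was higher, and none of the 6 Zbtb46 regions was called. A region 34631 bp downstream of the start of Batf3, which encodes a factor of type 1 dendritic cells, was lower, with 11.6 and 9.64 against 33.3 and 25.1 CPM (log2 difference -1.46, SE 0.30, edgeR adjusted p = 7.59e-05).

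**Figure D3:**
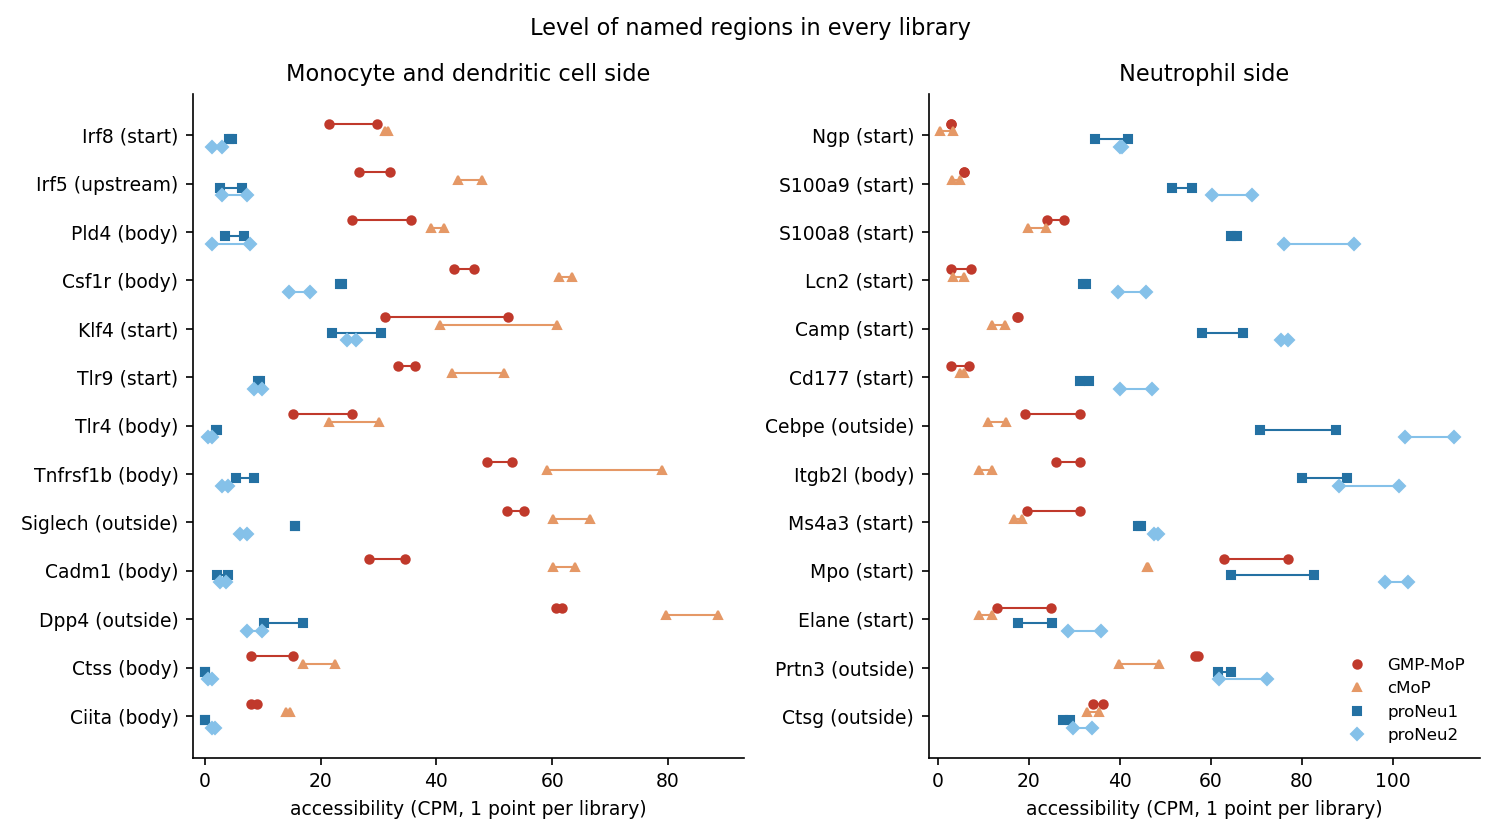
Accessibility (horizontal axis, CPM) of 26 named regions in all 8 libraries, with 1 point per library, a line joining the 2 libraries of a group, and monocyte and dendritic cell genes on the left and neutrophil genes on the right. GMP-MoP lies above proNeu1 throughout the left panel and below it from Ngp to Ms4a3 on the right, while at Mpo, Elane, Prtn3 and Ctsg the difference did not pass the test.

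On the neutrophil side, Ngp, S100a8, S100a9, Camp and Lcn2 were each linked to regions less open in GMP-MoP. Of 102 tested regions linked to 36 later granule and neutrophil maturation genes, 34 (33.3%) were lower and 6 (5.88%) higher, with a median log2 difference of -0.43. All tested regions had 12.5% lower and 11.6% higher. The lower share of the list was close to that of housekeeping genes (34.3%). At gene starts 14 of 25 were lower, and elsewhere 20 of 77, against 25.8% and 9.01% of all tested regions of these kinds. By gene, 22 had only lower regions, 4 only higher ones, 1 both and 9 neither. The summed level of the list was 1474 and 1565 CPM in GMP-MoP and 2402 and 2383 CPM in proNeu1. The lower count was 22 with DESeq2, 30 with loess offsets and 27 to 30 with any 1 of the 4 libraries left out. The higher count was 1 with DESeq2, 0 without GMP-MoP replicate 2, 2 without proNeu1 replicate 1 and 1 without proNeu1 replicate 2.

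Ngp encodes neutrophilic granule protein, and its start (chr9:110419368-110420176) was among the 10 largest losses linked to a gene. It had 2.90 and 2.83 CPM in GMP-MoP and 41.8 and 34.6 CPM in proNeu1, a log2 difference of -3.70 (SE 0.38, edgeR adjusted p = 8.64e-16). The GMP-MoP values lay close to the 3-count level. S100a9 and S100a8 encode the subunits of calprotectin, the main cytosolic protein of neutrophils. The S100a9 start (chr3:90695381-90696322) had 5.81 and 5.67 against 56.0 and 51.5 CPM (log2 difference -3.21, SE 0.30, edgeR adjusted p = 9.09e-19). The S100a8 start (chr3:90668526-90669606) had 24.0 and 27.8 against 65.9 and 64.4 CPM (log2 difference -1.32, SE 0.21, edgeR adjusted p = 1.08e-07). Both starts were lower in both GMP-MoP libraries, and the contrast between the neighbours was not tested.

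The other regions of these neighbours showed the same direction or none. A region 9732 bp downstream of the S100a8 start had 3.63 and 4.54 against 13.5 and 21.0 CPM (log2 difference -2.04, SE 0.42, edgeR adjusted p = 7.32e-05). A region 8743 bp downstream of the S100a9 start had 14.5 and 17.0 against 46.7 and 38.0 CPM (log2 difference -1.41, SE 0.25, edgeR adjusted p = 3.72e-06). The 4 other S100a9 regions did not pass the test, with log2 differences from -0.63 to 0.08.

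Camp, Lcn2, Cd177 and Itgb2l also had lower regions, although 1 of the 3 Cd177 regions was higher. The start of Camp, which encodes the antimicrobial cathelicidin (chr9:109849058-109850121), had 17.4 and 17.6 against 58.1 and 67.1 CPM (log2 difference -1.84, SE 0.23, edgeR adjusted p = 1.47e-11). The start of Lcn2, which encodes the iron-binding lipocalin 2, had 2.90 and 7.37 against 32.6 and 31.9 CPM (log2 difference -2.56, SE 0.34, edgeR adjusted p = 4.29e-10). The start of Cd177, a surface antigen of neutrophils, had 2.90 and 6.80 against 31.2 and 33.2 CPM (log2 difference -2.65, SE 0.34, edgeR adjusted p = 1.74e-10). In all 3 both GMP-MoP libraries were below both proNeu1 libraries, and in 99.4% of all called regions the groups likewise did not overlap. Itgb2l, an integrin subunit gene, had a region at 31.2 and 26.1 against 89.9 and 80.0 CPM (log2 difference -1.58, SE 0.19, edgeR adjusted p = 1.03e-11).

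Of the 36 genes, 13 had no lower region. Others had lower regions but did not pass the test where they were best covered. The best-covered regions of Ltf, which encodes lactoferrin, Csf3r, the receptor for granulocyte colony-stimulating factor, and Cxcr2, a chemokine receptor, had log2 differences of -0.42 (SE 0.24), -0.15 (SE 0.22) and -0.58 (SE 0.34), none past the test, while 2 of 5, 1 of 4 and 1 of 4 of their regions were lower. Mmp8, neutrophil collagenase, had 2 of 3 regions higher. Its start (chr9:7557936-7558876) had 24.7 and 36.3 CPM in GMP-MoP and 10.6 and 14.9 CPM in proNeu1 (log2 difference 1.27, SE 0.28, edgeR adjusted p = 2.38e-04, but 0.0835 without GMP-MoP replicate 2). The other lay 8992 bp downstream, had 27.6 and 51.0 against 24.1 and 27.8 CPM, groups that overlap, and lost its call with DESeq2 and without GMP-MoP replicate 2, proNeu1 replicate 1 or proNeu1 replicate 2 (adjusted p up to 0.909). Mmp8 thus stood apart from Ngp, Camp and Lcn2 in direction.

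Cebpe and Gfi1 encode transcription factors of neutrophil differentiation. Both Cebpe regions were lower. The first (chr14:54705441-54707330) had 31.2 and 19.3 against 70.8 and 87.5 CPM (log2 difference -1.68, SE 0.20, edgeR adjusted p = 4.59e-12), and the second (chr14:54711747-54713483) had 27.6 and 31.8 against 51.7 and 76.6 CPM (log2 difference -1.10, SE 0.20, edgeR adjusted p = 6.56e-06). Neither was closed in GMP-MoP. Of 5 Gfi1 regions 2 were lower. That 25204 bp downstream of the start had 30.5 and 30.1 against 55.2 and 68.5 CPM (log2 difference -1.03, SE 0.20, edgeR adjusted p = 2.41e-05). One of 2 regions at Gfi1 starts had 16.7 and 11.9 against 22.7 and 40.7 CPM (log2 difference -1.18, SE 0.28, edgeR adjusted p = 5.41e-04). That call was lost with DESeq2 (adjusted p = 0.0847), without GMP-MoP replicate 2 (0.0592) and without proNeu1 replicate 2 (0.196). The other had 43.6 and 45.4 against 53.1 and 60.4 CPM and did not pass the test (log2 difference -0.35, SE 0.19).

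The primary granule genes had regions open in both groups. Of 33 regions linked to 11 genes, 3 were higher and 3 lower, 9.09% in each direction, with a median log2 difference of 0.05. These shares were near the 11.6% and 12.5% of all tested regions. The start of Mpo, which encodes myeloperoxidase, had 77.0 and 62.9 CPM in GMP-MoP and 64.5 and 82.7 CPM in proNeu1, values that overlap (log2 difference -0.09, SE 0.17). The start of Elane, neutrophil elastase, had 13.1 and 24.9 against 17.7 and 25.1 CPM (log2 difference -0.13, SE 0.28). Prtn3 and Ctsg, which encode the sister proteases proteinase 3 and cathepsin G, had log2 differences of -0.15 (SE 0.18) and 0.31 (SE 0.23) in their best-covered regions. A missed threshold does not show that these regions were equal.

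Of the primary granule calls, those with lower regions were linked to Ms4a3, Nkg7 and Srgn. The start of Nkg7, a granule membrane protein known from cytotoxic cells, had 38.5 and 38.0 against 68.7 and 69.9 CPM (log2 difference -0.86, SE 0.19, edgeR adjusted p = 2.02e-04). The start of Ms4a3, a marker of granulocyte-monocyte progenitors, had 19.6 and 31.2 against 44.6 and 44.1 CPM (log2 difference -0.77, SE 0.22, edgeR adjusted p = 0.00575). The Ms4a3 call was lost with loess offsets (adjusted p = 0.14), with DESeq2 (0.153) and without GMP-MoP replicate 1 (0.128). The higher calls, at Ctsc and Cst7, were lost with DESeq2 (adjusted p = 0.179 for the named region of each). Neither list count of 3 held in every fit: 0 regions were higher with DESeq2, without GMP-MoP replicate 2 and without proNeu1 replicate 1, and 1 was lower with DESeq2 and without GMP-MoP replicate 1.

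The NADPH oxidase is the enzyme that makes the oxidative burst. None of the 29 regions linked to the 8 genes of the list was higher and 10 (34.5%) were lower, with a median log2 difference of -0.61. For all tested regions the shares were 11.6% higher and 12.5% lower. The lower count was 6 with loess offsets, 2 with DESeq2, 4 without GMP-MoP replicate 2 and 6 without proNeu1 replicate 2, and 1 region was higher in that last fit. Rac2, the small GTPase of the oxidase in blood cells, had a region at 43.6 and 33.5 against 88.5 and 87.5 CPM (log2 difference -1.21, SE 0.18, edgeR adjusted p = 2.45e-08). Cyba, which encodes a membrane subunit of the complex, had 2 of 2 regions lower, and Cybb, its catalytic subunit, 0 of 5. With loess offsets neither Cyba region was called.

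Housekeeping genes also had many lower regions, 12 of 35 (34.3%, against 12.5% of all tested regions), with 2 higher and a median log2 difference of -0.34. Actb, β-actin, had a region at 124 and 107 against 200 and 191 CPM (log2 difference -0.76, SE 0.13, edgeR adjusted p = 1.23e-06). The lower housekeeping count was 3 with loess offsets, 8 with library totals, 3 with DESeq2, 3 without GMP-MoP replicate 2 and 7 without proNeu1 replicate 1. With loess offsets, which set the median of all tested regions at 0.14, the later granule list had 30 lower of 102 and a median of -0.26, the NADPH oxidase list a median of -0.32 and the housekeeping list a median of 0.05.

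**Figure D4:**
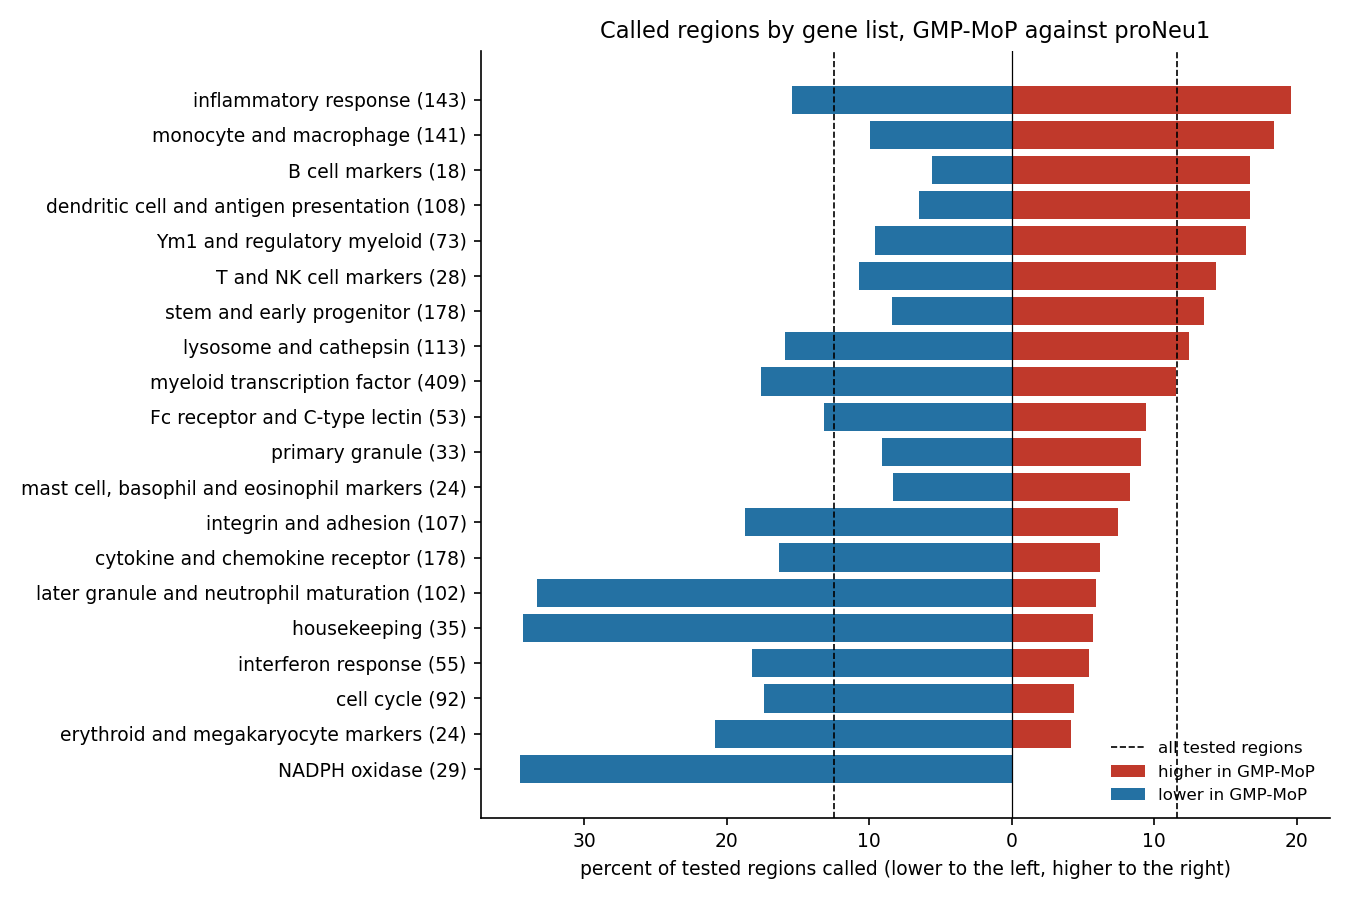
Percent of the tested regions of each gene list (number of regions in brackets) that were called higher (right) or lower (left) in GMP-MoP than in proNeu1, with dashed lines at 11.6% and 12.5% for all tested regions. The later granule (33.3%), housekeeping (34.3%) and NADPH oxidase (34.5%) lists have the longest bars to the left, and the inflammatory response and monocyte and macrophage (18.4%) lists the longest to the right.

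Receptor and inflammatory genes had called regions in both directions. Of 178 cytokine and chemokine receptor regions 11 (6.18%) were higher and 29 (16.3%) lower, against 11.6% and 12.5% of all tested regions. With loess offsets, however, 15 were higher and 10 lower. The higher count was 2 with DESeq2, 7 without GMP-MoP replicate 2 and 7 without proNeu1 replicate 1. The lower count was 17 with library totals, 5 with DESeq2, 15 without GMP-MoP replicate 2, 16 without proNeu1 replicate 1 and 19 without proNeu1 replicate 2. A region in Tnfrsf1b, which encodes the second receptor for tumour necrosis factor (chr4:145233295-145234613), had 53.0 and 48.8 CPM in GMP-MoP and 8.50 and 5.43 CPM in proNeu1 (log2 difference 2.86, SE 0.29, edgeR adjusted p = 9.85e-16). A region 16002 bp upstream of Cxcr4, the receptor that holds progenitors in the marrow, had 27.6 and 32.3 against 2.13 and 2.71 CPM (log2 difference 3.60, SE 0.42, edgeR adjusted p = 7.70e-13), while 2 of the 9 Cxcr4 regions were lower. A region linked to Il18r1, an interleukin-18 receptor chain, was lower, at 10.9 and 13.6 against 36.1 and 27.1 CPM (log2 difference -1.34, SE 0.28, edgeR adjusted p = 1.00e-04).

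Of 143 inflammatory response regions 28 (19.6%) were higher and 22 (15.4%) lower, against 11.6% and 12.5% of all tested regions. Those counts were 7 and 5 with DESeq2, 14 and 13 without GMP-MoP replicate 2, 17 and 13 without proNeu1 replicate 1 and 17 and 11 without proNeu1 replicate 2, and the lower count was 11 with loess offsets. The Toll-like receptor genes, which encode sensors of microbial products, had called regions in 1 direction. The Tlr9 start (chr9:106222031-106223643) had 33.4 and 36.3 against 9.21 and 9.50 CPM (log2 difference 1.89, SE 0.30, edgeR adjusted p = 1.04e-07). A region in Tlr4 had 25.4 and 15.3 against 2.13 and 2.04 CPM (log2 difference 3.21, SE 0.48, edgeR adjusted p = 3.67e-08). Of the regions linked to Tlr2, Tlr4, Tlr7, Tlr9 and Tlr13, 1 of 7, 2 of 6, 3 of 4, 1 of 1 and 1 of 5 were higher and none was lower, and none was lower with library totals, DESeq2-type size factors or loess offsets in edgeR either. A region in Alox5ap, which serves leukotriene synthesis, and the start of Nfkb2, a subunit of NF-κB, were lower, with log2 differences of -0.93 (SE 0.17) and -0.94 (SE 0.17).

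Among the 409 regions linked to 64 myeloid transcription factor genes, 47 (11.5%) were higher and 72 (17.6%) lower. Over all tested regions these shares were 11.6% and 12.5%, so the higher share was that of the background. Lower regions were 23 of 58 at gene starts and 49 of 351 elsewhere, against 25.8% and 9.01% of all tested regions of these kinds. The counts were 13 and 18 with DESeq2, 21 and 30 without GMP-MoP replicate 2, 25 and 51 without proNeu1 replicate 1 and 31 and 45 without proNeu1 replicate 2, and with loess offsets the counts were 54 and 40, so that the higher calls were then the more numerous. The factors shared by both lineages did not pass the test at their best-covered regions. The Cebpa start had 98.8 and 69.2 against 85.7 and 97.0 CPM (log2 difference -0.14, SE 0.16), and the Spi1 region, at the gene of PU.1, had 44.3 and 38.0 against 42.5 and 50.9 CPM (log2 difference -0.20, SE 0.20). Ets1, Myb and Myc, at -0.03 (SE 0.17), 0.13 (SE 0.22) and -0.04 (SE 0.18), did not pass either. Other regions of these genes were called. Cebpa had 1 of 4 and Myc 1 of 5 regions higher, and Spi1 1 of 5 lower. Ets1 had 2 higher and 2 lower of 14, and Myb 1 higher and 1 lower of 8.

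Other factor genes held regions of both directions. Etv6, which encodes a repressor of the ETS family, had a region at 34.9 and 25.5 against 4.96 and 4.07 CPM (log2 difference 2.70, SE 0.36, edgeR adjusted p = 6.26e-10). Runx1, at the base of the blood lineage, had 1 higher and 5 lower of 18 regions. The higher one (chr16:92675283-92676429) had 17.4 and 17.0 against 2.13 and 2.71 CPM (log2 difference 2.79, SE 0.48, edgeR adjusted p = 1.63e-06). Each of the 5 lower Runx1 calls was lost with DESeq2 and without GMP-MoP replicate 2. Bach2, Fli1 and Bhlhe41 had 5 of 23, 3 of 14 and 3 of 6 regions higher and none lower, and Irf1 and Cebpb had 4 of 7 and 4 of 9 lower and none higher. With loess offsets these were 6, 4 and 1 higher regions and 2 and 1 lower ones, with none in the opposite direction.

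Of 178 regions of stem and early progenitor genes, 24 (13.5%) were higher and 15 (8.43%) lower, against 11.6% and 12.5% of all tested regions. With DESeq2 the counts were 4 and 3. The higher count was 8 without GMP-MoP replicate 2, 16 without proNeu1 replicate 1 and 10 without proNeu1 replicate 2, and the lower count 7, 9 and 10. Cd34, Flt3, Meis1 and Hoxa9 did not pass the test at their best-covered regions, with log2 differences of -0.15 (SE 0.17), 0.46 (SE 0.24), 0.09 (SE 0.23) and -0.30 (SE 0.32). Elsewhere, Cd34 had 3 higher and 1 lower of 9 regions, and Flt3, Meis1 and Hoxa9 had 2 of 10, 2 of 10 and 1 of 2 higher. Kit had 1 of 4 regions lower, its best-covered one (edgeR adjusted p = 0.0215). The Kit call was lost with library totals, loess offsets and DESeq2 (adjusted p = 0.0763, 0.596 and 0.264). Ikzf1, which encodes a zinc finger factor of lymphoid and myeloid progenitors, had 6 of 15 regions higher and none lower. The strongest (chr11:11781454-11782332) had 26.9 and 26.6 against 2.13 and 6.10 CPM (log2 difference 2.66, SE 0.38, edgeR adjusted p = 5.93e-09), and the other 5 Ikzf1 calls were lost with DESeq2. Erg, an ETS factor of stem cells, had 8 of 22 regions lower and none higher. The Erg region of highest mean level (chr16:95464194-95465296) had 29.0 and 22.7 against 56.7 and 52.9 CPM (log2 difference -1.10, SE 0.22, edgeR adjusted p = 2.85e-05). In DESeq2, 5 of the 8 Erg calls were not made, as were 4 without GMP-MoP replicate 2.

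The remaining lists had called regions in both directions, as had all tested regions, with 11.6% higher and 12.5% lower. Of 73 regions of Ym1 and regulatory myeloid genes, 12 (16.4%) were higher and 7 (9.59%) lower, and the higher count was 4 with DESeq2, 4 without GMP-MoP replicate 2, 6 without proNeu1 replicate 1 and 7 without proNeu1 replicate 2. The best-covered region of Chil3, the Ym1 gene, had 18.2 and 28.9 against 25.5 and 29.2 CPM and did not pass the test (log2 difference -0.18, SE 0.25). The higher and lower counts were 14 and 18 of 113 for lysosome and cathepsin genes, 3 and 10 of 55 for interferon response genes, 5 and 7 of 53 for Fc receptor and C-type lectin genes, 8 and 20 of 107 for integrin and adhesion genes, and 4 and 16 of 92 for cell cycle genes (8 and 4 with loess offsets). The shares were 12.4% and 15.9%, 5.45% and 18.2%, 9.43% and 13.2%, 7.48% and 18.7%, and 4.35% and 17.4%, against 11.6% and 12.5% of all tested regions. With library totals or loess offsets the lysosome and lectin lists had more higher than lower regions, and with loess offsets the integrin list had 13 of each. With DESeq2 the higher counts of these 5 lists were 1, 0, 1, 3 and 0 and the lower counts 4, 0, 0, 5 and 4. With each of the 4 libraries left out in turn, the higher counts ranged from 5 to 11, 0 to 2, 1 to 4, 5 to 7 and 1 to 2, and the lower counts from 8 to 16, 1 to 10, 1 to 6, 6 to 19 and 4 to 20. The lowest of these lower counts came without GMP-MoP replicate 2, and for the lectin list without proNeu1 replicate 1. Itgam, the gene of the CD11b integrin, held both directions. A region 13615 bp upstream of it had 23.2 and 21.0 against 3.54 and 7.46 CPM (log2 difference 1.97, SE 0.37, edgeR adjusted p = 1.23e-05), and its start had 26.1 and 22.1 against 51.0 and 50.9 CPM (log2 difference -1.09, SE 0.22, edgeR adjusted p = 5.04e-05).

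Of those linked to a gene and at 10 CPM or more in both libraries of the higher group, the 10 of largest gain were linked to Itpr1, 4930519F16Rik, Ttc27, Dclk1, Pdha2, Inhba, Vwa5a, Veph1, Mecom and Carmil1. Each had 1 to 3 proNeu1 counts, so the size of the gain is poorly bounded. Itpr1, a calcium channel gene, had 18.2 and 14.2 CPM in GMP-MoP and 0.708 and 0 CPM in proNeu1, a ratio of 46.0 (95% exact counting interval 7.88 to 1851). Mecom, which encodes a factor of stem cells, had 13.1 and 14.7 against 0.708 and 0.678 CPM, a ratio of 20.2 (5.27 to 172). The 10 of largest loss were linked to Cd200r3, St3gal5, Abcb10, Nucb2, Adpgk, Hmgn2, Rabif, Nav2, Ngp and Septin5, and of all 20 the Ngp region alone was at a gene start.

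The 4 libraries of cMoP and proNeu2 share no sample with GMP-MoP and proNeu1. Between them, 27.4% of tested regions were higher in cMoP and 25.2% lower. Of the 5513 regions higher in GMP-MoP than in proNeu1, 4972 (90.2%) were also called higher in cMoP than in proNeu2, which is 38.2% of the regions called there, and 1 was called in the opposite direction. Of the 5915 lower regions, 5188 (87.7%) were also called lower, 43.3% of those called there, and 3 were opposite. The median log2 difference between cMoP and proNeu2 was 2.25 at the higher and -0.97 at the lower regions. It was 1.46 and -2.06 with loess offsets, where the lower regions had the larger size, and 3.05 and -1.16 with DESeq2. All 4 groups entered the same fit and share its estimate of the spread and its filter on low counts. A region could pass that filter through its level in cMoP or proNeu2, so these shares are not fully independent of those groups. In a fit of the GMP-MoP and proNeu1 libraries alone, 38200 regions passed the filter.

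**Figure D5:**
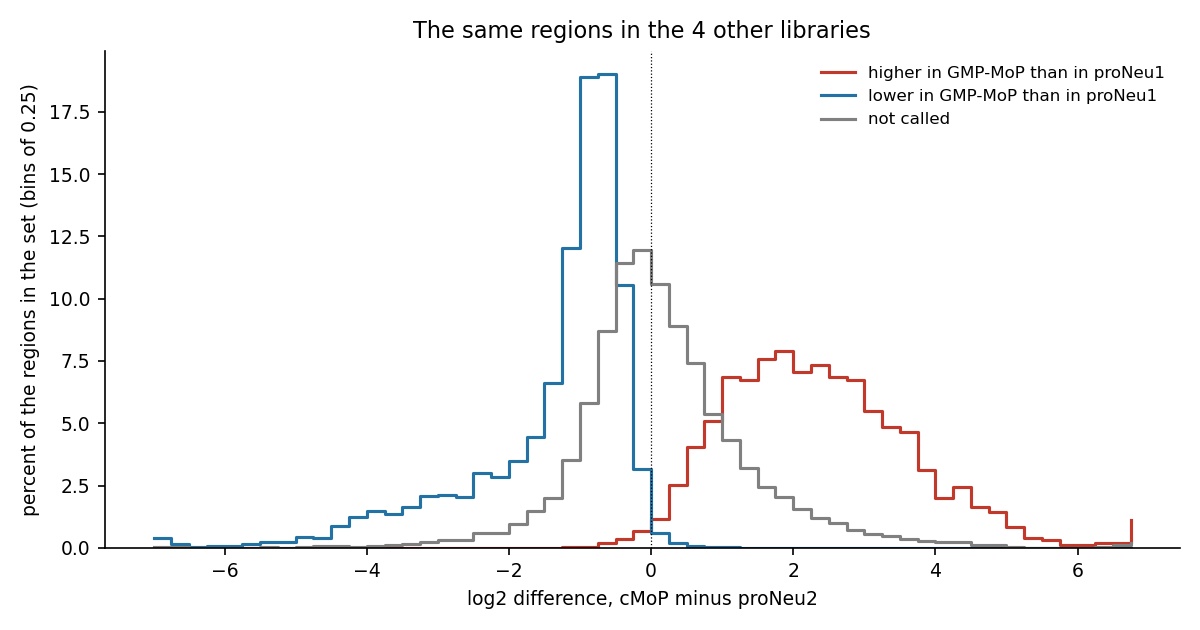
Distribution of the log2 difference between cMoP and proNeu2 (horizontal axis, bins of 0.25, values beyond the axis in the outermost bins) as a percent of each set of regions (vertical axis), for regions higher in GMP-MoP than in proNeu1, lower there, or not called. The higher set is centred at 2.25 and the lower set at -0.97, with few regions of either set across zero.

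At the Irf8 and S100a9 starts the cMoP and proNeu2 values lay on the same sides. The Irf8 start had 31.2 and 31.7 CPM in cMoP and 3.04 and 1.33 CPM in proNeu2. The S100a9 start had 4.84 and 3.17 against 60.2 and 69.0 CPM. At the starts of the primary granule genes Mpo and Elane, the difference between GMP-MoP and proNeu1 did not pass the test. There cMoP stood lower than proNeu2. The Mpo start had 46.2 and 45.9 CPM in cMoP and 103 and 98.2 CPM in proNeu2. The Elane start had 11.8 and 8.97 against 35.9 and 28.5 CPM. Whether these 2 differences differ from those between GMP-MoP and proNeu1 was not tested.

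Motif cores were counted in RefSeq promoter windows of 300 bases whose gene start lay in a tested region. The PU.1 core was in 6.54% of 459 promoters in higher regions, 3.26% of 3617 in lower regions and 3.56% of all 13103. The IRF core was in 9.59%, 5.25% and 6.96%, and in 13.6% of the 258 promoters in regions higher by at least 2 fold. The AP-1 core, which reads TGAGTCA on the other strand, was in 5.01%, 2.32% and 3.25%, and the RUNX core in 2.18%, 0.581% and 1.29%. The C/EBP core was in 1.09%, 1.41% and 1.49%, the KLF core in 3.92%, 4.29% and 3.77% and the GFI1 core in 0.654%, 0.194% and 0.252%. Higher regions thus held the larger share for PU.1, IRF, AP-1, RUNX and GFI1, the last from 3 promoters. Among the 258 promoters in regions higher and the 292 in regions lower by at least 2 fold, the shares were 7.36% and 5.14% for PU.1, 13.6% and 5.82% for IRF and 6.59% and 3.42% for AP-1, but for RUNX the order turned, at 1.94% and 2.05%. The promoters of the sets also differed in GC content, as given above, which was not adjusted for. The full TTGCGCAA form of the C/EBP site was in 0 of the 459 promoters and in 17 of the 3617. These shares are descriptions with no test.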

How the data were processed

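Open chromatin was measured by ATAC-seq in 8 libraries of 4 groups, 2 in each. The deposited files hold raw read counts over 61196 regions of mm10, shared by all files. The authors used Bowtie2 2.3.5.1, HOMER 4.11 and edgeR 3.32.1, per the submitters' processing notes. How reads were shifted for Tn5, filtered and counted, and whether regions were called on pooled libraries, was not stated in the labels. Totals cover these regions only.

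All 8 libraries were fitted in edgeR 4.0.16 (R 4.3.3) with TMM factors, 1 mean per group and robust quasi-likelihood dispersions, after filterByExpr with min.count 10. Calls were made at a Benjamini-Hochberg adjusted p under 0.05. CPM uses TMM-scaled library sizes, and the SE is the log2 difference divided by the square root of F. A fold against a group with no count takes 3 counts over the group as the floor, and with 1 to 3 counts the ratio has a 95% exact interval. Intervals and floors cover counting error only, since PCR copies are not independent molecules. In a simulation of the GMP-MoP and proNeu1 libraries (45643 regions) the test found 16% of 50 regions set to change 1.5 fold, 70% at 2 fold and 100% at 3 and at 4 fold, with 3 false calls among 45443 others. The changed regions were drawn only from those of higher count, and all regions were given the same dispersion. The simulation thus does not give the power or the false calls at regions of low count or larger spread.

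Regions were linked to the nearest RefSeq protein-coding gene interval within 50 kb (53897 regions, 88.1%, and 15579 of 21896 genes). Gene starts were listed for 17491 genes. Distances are from a region's midpoint to the nearest listed start of its gene, and at Irf8 to the start of the printed promoter. Nearness to a gene is no evidence that the region controls it. The 20 gene lists and the groups compared were chosen with earlier results of these data known. Regions were named by rule: the 10 of largest difference in each direction, the 2 of lowest p per list and direction, the best-covered region of set genes and every region of Irf8, Csf1r, Cebpe, Gfi1, Elane, S100a8 and S100a9. Alternatives were library totals, RLE factors, loess offsets, no filter, DESeq2 1.42.0, fewer libraries, each library left out, a replicate block, other link distances and a 2 fold minimum. Called Erg, Ikzf1 and Runx1 regions beyond the rule, gene counts within lists and the regions of opposite direction were chosen after their values were seen. Some named items are not reported here.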

Additional observations from a re-analysis of the deposited data

How the results depend on the processing

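Of 124 named calls, 71 were made under every alternative of fit and left-out library. DESeq2 ended 49, loess offsets 18 and leaving out GMP-MoP replicate 2, the deeper of its group, 40, and no named call changed direction. The count of higher regions (5513) was 1063 with DESeq2 and 2443 to 4702 with 1 library left out. The count of lower regions (5915) was 2959 with loess offsets, 1072 with DESeq2, 2280 at a 2 fold minimum and 2306 to 5670 with 1 library left out. In a fit that leaves a group with 1 library, that library is assumed to vary like the others. Gene starts made up 10.2% of the higher regions, but 28.9% with loess offsets and 5.94% with DESeq2, and 52.8% of the lower regions, but 20.2% with loess offsets. The cause was not tested. At edgeR's unadjusted p under 0.05 there were 17100 regions, against 9199 with DESeq2.

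The replicate numbers were not shown to pair samples: the correlations of same-numbered deviations between groups ran from -0.011 to 0.079. With a replicate block, 5555 regions were higher and 6179 lower, and 1 named call, at Runx1, was not made. With 2 libraries a group, the depth limited what could be seen: 952 of the higher regions had at most 3 proNeu1 counts, and changes of 1.5 fold were mostly missed in the simulation.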

Other observations

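Some genes held many called regions of 1 direction. Stxbp6 had 10 of 14 linked regions higher in GMP-MoP, and Ank2, Fhit and Slc9a9 had 9 of 15, 13 and 18, with none lower. Dock10, a guanine nucleotide exchange factor of leukocytes, had 8 of 16 higher. Trak1 had 8 of 15 lower and none higher. Of 14696 genes with a tested region, 3038 had a higher one, 4352 a lower one and 645 both. These genes were chosen after their values were seen.

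Calls were uneven over chromosomes. On chromosome 3, 17.3% of tested regions were higher and 6.09% lower, and on chromosome X 13.6% and 2.57%. On chromosome 11, 7.41% were higher and 20.6% lower, and on chromosome 19 5.66% and 20.2%. All tested regions together had 11.6% higher and 12.5% lower. The chromosome shares were taken with TMM factors only, and whether they hold with other scalings was not tested.

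Of the 4 regions called in opposite directions in the other pair of groups, 1 linked to Idnk was higher in GMP-MoP than in proNeu1 (16.0 and 15.3 against 7.79 and 8.14 CPM) and lower in cMoP than in proNeu2 (10.2 and 6.86 against 12.8 and 17.3 CPM). A region in Vipr2, which encodes a receptor for vasoactive intestinal peptide, was lower in GMP-MoP (39.9 and 31.2 against 64.5 and 46.8 CPM) and higher in cMoP (65.1 and 51.2 against 42.6 and 35.2 CPM). The others were linked to Pls3 and Rabgap1l. Each of the 4 calls between GMP-MoP and proNeu1 was lost with DESeq2 and without GMP-MoP replicate 2.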
